A study of Mus musculus with 20 samples.

Results

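Genes of vascular growth and the vessel surface were described in the cortex of mice with experimental autoimmune encephalomyelitis (EAE), a paralytic disease set off by immunisation against a myelin peptide and used as a model of multiple sclerosis: Tie1, Tek, Kdr, Flt1, Apln and Emcn. They are 6 of the 18194 genes that the arrays measured under a single gene symbol, and all 6 were found. Each gene is represented by its brightest probe set, the one with the highest mean over all arrays. The genes were chosen by their lower values in EAE than in healthy mice on these same arrays. Their differences between EAE and healthy mice are therefore given as a description, and calls given for them on this contrast count as no test.

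The vascular endothelial growth factor (VEGF) receptors Kdr (VEGFR2) and Flt1 (VEGFR1) are receptor tyrosine kinases of endothelial cells. Kdr carries the main growth and survival signal of VEGF-A, and Flt1 binds the same ligand tightly but signals weakly, so it also acts as a trap, in part as a soluble form. Tek (TIE2) is the receptor for the angiopoietins: angiopoietin 1, made largely by mural cells, keeps vessels quiescent through it, and angiopoietin 2 mostly opposes this. Tie1 is the related receptor that pairs with Tek and tunes its signal. Apln encodes the secreted peptide apelin, which acts through the receptor Aplnr and marks sprouting endothelium, and which some neurons also make. Emcn encodes endomucin, a sialomucin of the endothelial surface that is typical of capillaries and veins.

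Motor and sensory cortex were dissected from brain slices of 10 female C57Bl6 mice, and each piece of tissue gave 1 Affymetrix array, 20 in all. The 6 EAE mice were injected at an age of 8 to 12 weeks with 100 µg of MOG35-55 in the flanks, 50 µg of it at the base of the tail and received pertussis toxin (400 ng) on day 0 and again on day 3. They had average grades from 2.5 to 3.5. The 4 healthy mice have the same age of 8 to 12 weeks in the labels and lived in the same cages. The labels describe no injection for them, so immunisation and toxin cannot be told apart from disease. The labels give the EAE mice as taken at day 18 to 21, and their protocol gives day 21. Both cohorts of the study held 3 EAE and 2 healthy mice. Values are deposited log2 expression, with array medians from 8.22 to 8.32. Genes that define cortical neurons averaged 13.7 to 13.9 on every array. The arrays read whole tissue, so fewer endothelial cells and less RNA per endothelial cell cannot be told apart in any result.

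The genes lie, in assembly GRCm38.p6, at chr4:118471191-118489849 (Tie1), chr4:94739086-94874976 (Tek), chr5:75932827-75979072 (Kdr), chr5:147561604-147726438 (Flt1), chrX:48025146-48034853 (Apln) and chr3:137341062-137431069 (Emcn). The sequences before the starts of Apln, Emcn and Tie1, also the genes with the lowest values in EAE relative to healthy mice, are shown to set their promoters side by side. For Tek, Kdr and Flt1 most or all of the 250 bases before the RefSeq start used lie inside the annotated gene, so none are shown. The sequences shown come from the RefSeq table of GRCm38.p6 and end at the base before the outermost annotated start of the gene. Capitals mark the ETS core motif AGGAAG or its reverse complement CTTCCT, since ETS factors are general regulators of endothelial genes.
Apln (chrX:48034854-48035103, minus strand): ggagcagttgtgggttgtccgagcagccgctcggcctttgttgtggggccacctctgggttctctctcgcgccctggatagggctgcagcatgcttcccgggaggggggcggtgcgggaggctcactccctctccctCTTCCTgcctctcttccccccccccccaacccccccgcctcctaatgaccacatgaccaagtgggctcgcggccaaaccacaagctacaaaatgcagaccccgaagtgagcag
Emcn (chr3:137340828-137341061, plus strand): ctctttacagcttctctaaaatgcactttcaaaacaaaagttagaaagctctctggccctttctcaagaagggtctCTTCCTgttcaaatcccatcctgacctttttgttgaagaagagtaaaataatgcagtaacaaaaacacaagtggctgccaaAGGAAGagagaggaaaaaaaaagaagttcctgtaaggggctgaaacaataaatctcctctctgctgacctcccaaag
Tie1 (chr4:118489850-118490099, minus strand): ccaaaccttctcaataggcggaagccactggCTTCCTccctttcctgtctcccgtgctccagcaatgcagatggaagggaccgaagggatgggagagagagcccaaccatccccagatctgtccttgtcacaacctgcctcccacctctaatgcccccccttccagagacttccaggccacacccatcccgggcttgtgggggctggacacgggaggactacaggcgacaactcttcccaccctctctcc

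In the 250 bases before the RefSeq start, the ETS core was found on either strand for 4 of the 6 genes, against 29.5% of 32851 windows of the same length. Distances are counted to the end of the 250-base window. It lay 113 bases before the start of Apln, 219 before that of Tie1, 174 and 93 before that of Emcn, and 129 and 53 before that of Flt1. The Emcn window ends at base 137341077 of chromosome 3, inside the outermost annotated transcript, so only its first 234 bases are printed and the distances in the printed run are shorter. The Kdr and Flt1 windows lie wholly inside the annotated span of their genes, and most of the Tek window does. Matches given for Kdr and Flt1 are therefore counted to a start within the gene and lie downstream of its outermost annotated start. The Notch effector motif TGGGAA was found in the windows of Tie1 and Kdr (21.6% of all windows) and TATAAA in that of Flt1, 31 bases from the end of the window (12.4% of all windows). The GATA motif AGATAA (9.99% of all windows), the forkhead motif TGTTTAC (3.17%) and the hypoxia core ACGTG (16.6%) were found before none of the 6. Both strands were searched for each motif. The windows differed in composition: 40.8% of the bases were G or C before Emcn and 70.4% before Flt1, with a median of 52.4% over all windows.

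All 6 genes stood lower in EAE mice in both regions, and the distance was largest for the ligand Apln and the sialomucin Emcn and smallest for Flt1. In each of the 12 EAE arrays every one of the 6 genes lay below the healthy mean of its region. Averaged over the genes, the distance below the healthy mean ran from -0.64 (EAE mouse 2) to -0.35 (EAE mouse 4) in motor cortex and from -0.66 (EAE mouse 2) to -0.40 (EAE mouse 5) in sensory cortex, on the log2 scale. The healthy arrays themselves lay between -0.10 (motor cortex of mouse 3) and 0.10 (sensory cortex of mouse 2) on this measure. EAE mouse 2 was thus the lowest in both regions, and no EAE array reached the range of the healthy ones. The genes were chosen for lower values in EAE, so their average is bound to lean this way. No share over all genes was computed for such an average, and nothing is read from the separation.

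**Figure D1:**
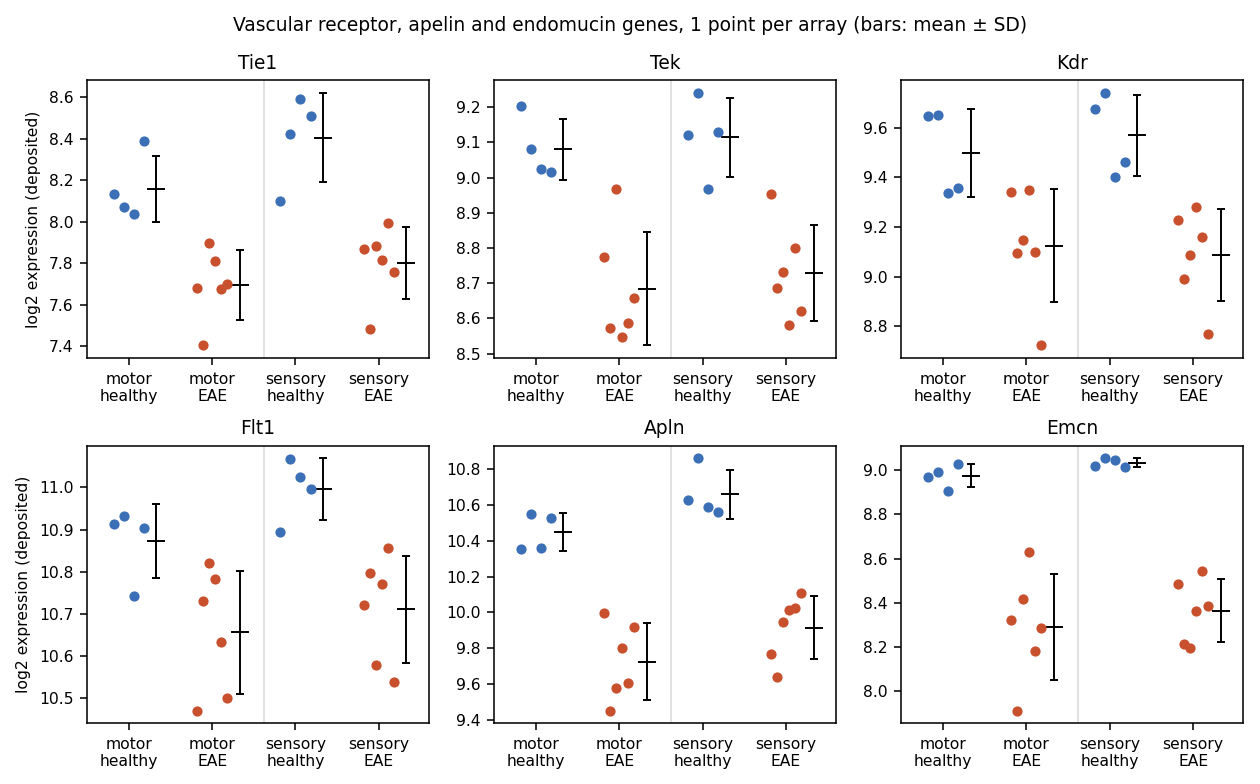
Log2 expression of the 6 genes (vertical axes) in motor and sensory cortex of healthy (blue) and EAE (orange) mice, 1 point for each array, with the mean ± SD of each group as a black bar. Emcn and Apln are separated in both regions, Emcn with healthy values from 8.91 to 9.05, while Kdr and Flt1 overlap in motor cortex.

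Apln, the apelin precursor gene, had values in motor cortex of 10.35, 10.55, 10.36 and 10.53 in healthy mice 1 to 4 and of 10.00, 9.45, 9.58, 9.80, 9.61 and 9.92 in EAE mice 1 to 6. The lowest healthy value lay 0.35 above the highest EAE value. The group means were 10.45 ± 0.11 (SD, n = 4) and 9.73 ± 0.21 (SD, n = 6), a difference of -0.72 ± 0.10 (SE, log2), or 1.65-fold lower in EAE. In sensory cortex the healthy values were 10.63, 10.86, 10.59 and 10.56 and the EAE values 9.77, 9.64, 9.95, 10.01, 10.02 and 10.11. The groups were 0.46 apart at their nearest arrays, and their means differed by -0.74 ± 0.10 (SE), 1.67-fold. Within cohorts 1 and 2 the Apln differences were -0.77 and -0.67 in motor cortex. They were -0.96 and -0.53 in sensory cortex, a wider spread between cohorts than for the other genes.

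Emcn, the endomucin gene, was the most even of the 6 in healthy mice. Its motor cortex values were 8.97, 8.99, 8.91 and 9.03 in the healthy mice and 8.32, 7.91, 8.42, 8.63, 8.18 and 8.29 in the EAE mice. Its sensory cortex values were 9.02, 9.05, 9.05 and 9.02 against 8.49, 8.21, 8.19, 8.36, 8.55 and 8.39. The groups did not overlap in either region. The SD in motor cortex was 0.05 (n = 4) among healthy and 0.24 (n = 6) among EAE mice, and in sensory cortex 0.02 and 0.14, so the EAE mice were also the more variable. The difference was -0.68 ± 0.11 (SE) in motor and -0.67 ± 0.07 (SE) in sensory cortex, 1.61-fold and 1.59-fold lower.

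The angiopoietin receptor pair stood lower by smaller amounts. Tie1 read 8.13, 8.07, 8.04 and 8.39 in healthy motor cortex and 7.68, 7.40, 7.90, 7.81, 7.68 and 7.70 in EAE motor cortex. In sensory cortex it read 8.10, 8.42, 8.59 and 8.51 against 7.87, 7.48, 7.89, 7.82, 7.99 and 7.76. EAE mouse 2 had the lowest Tie1 value in both regions, and in sensory cortex healthy mouse 1 was the nearest to the EAE values. The groups did not overlap in either region. The differences were -0.46 ± 0.09 and -0.61 ± 0.10 (SE), 1.38-fold and 1.52-fold lower.
Tek, the angiopoietin receptor itself, read 9.20, 9.08, 9.02 and 9.02 against 8.78, 8.57, 8.97, 8.55, 8.59 and 8.66 in motor cortex. In sensory cortex it read 9.12, 9.24, 8.97 and 9.13 against 8.95, 8.69, 8.73, 8.58, 8.80 and 8.62. The groups were separate by only 0.05 in motor cortex, where EAE mouse 3 came closest, and by 0.01 in sensory cortex, where EAE mouse 1 did. The Tek differences were -0.40 ± 0.07 and -0.39 ± 0.07 (SE), 1.32-fold and 1.31-fold lower.

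Of the VEGF receptors, Kdr differed more than Flt1. Kdr, the signalling receptor, read 9.65, 9.65, 9.34 and 9.36 in healthy and 9.34, 9.09, 9.15, 9.35, 9.10 and 8.72 in EAE motor cortex. In sensory cortex it read 9.67, 9.74, 9.40 and 9.46 against 9.23, 8.99, 9.09, 9.28, 9.16 and 8.77. Kdr values of a mouse went together: healthy mice 1 and 2, of cohort 1, were above healthy mice 3 and 4, of cohort 2, in both regions, and EAE mouse 6 was the lowest in both. The groups overlapped in motor cortex, where EAE mice 1 and 4 lay just above healthy mouse 3, but not in sensory cortex. The differences were -0.37 ± 0.10 and -0.48 ± 0.10 (SE). Within cohorts 1 and 2 they were -0.46 and -0.29 in motor and -0.60 and -0.36 in sensory cortex.

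Flt1, the decoy-like receptor, read 10.91, 10.93, 10.74 and 10.90 in healthy and 10.47, 10.73, 10.82, 10.78, 10.63 and 10.50 in EAE motor cortex. In sensory cortex it read 10.89, 11.07, 11.02 and 11.00 against 10.72, 10.80, 10.58, 10.77, 10.86 and 10.54. The groups overlapped in motor cortex, where healthy mouse 3 stood low, and were 0.04 apart in sensory cortex. The differences were -0.22 ± 0.08 and -0.29 ± 0.07 (SE), 1.16-fold and 1.22-fold lower.
Flt1 is the only one of the 6 with more than 1 probe set, and its 4 probe sets did not move together. The brightest gave the differences above. The 3 others stood at 0.10, 0.10 and -0.00076 in motor cortex and at -0.06, 0.04 and -0.14 in sensory cortex, and each overlapped between EAE and healthy mice in both regions. The mean of the 4 differed by -0.0040 in motor and -0.11 in sensory cortex. The lower Flt1 level therefore rests on a single probe set, and which transcript forms the probe sets read was not resolved here.

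**Figure D2:**
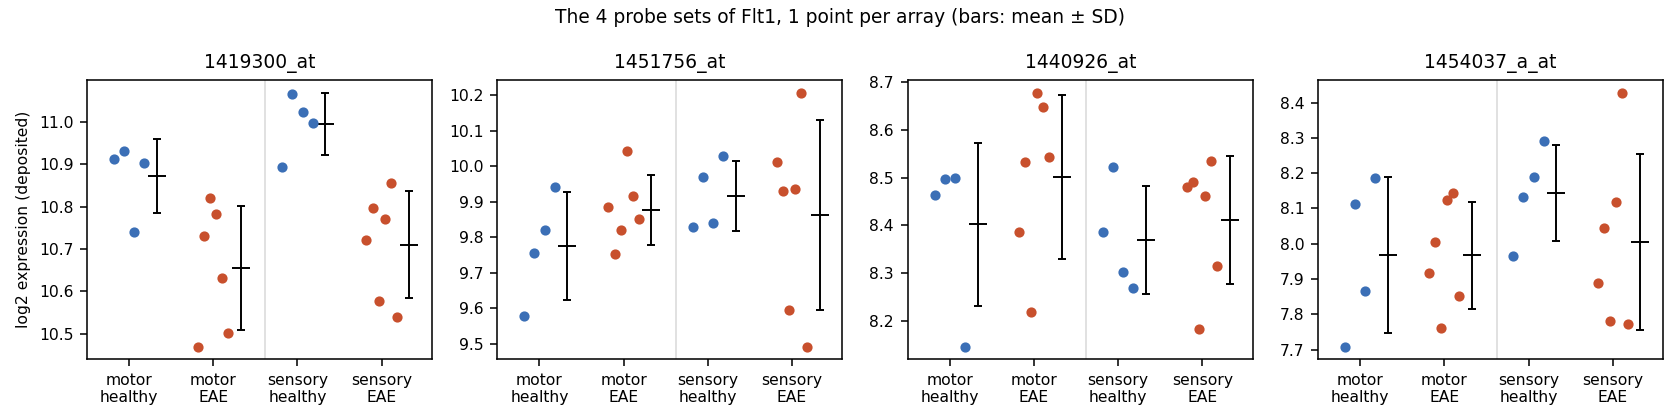
Log2 expression (vertical axes) on the 4 probe sets of Flt1, ordered by brightness from left to right, in each group, 1 point for each array with mean ± SD. In the brightest probe set the EAE mean differs by -0.22 in motor cortex, where the groups overlap, and by -0.29 in sensory cortex, where they do not. In the 3 others the groups overlap in both regions.

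Read against all genes, limma with Benjamini-Hochberg adjustment over 18194 genes put 4 of the 6 genes (Tie1, Tek, Apln, Emcn) past the threshold of 0.05 in motor cortex, where 1.74% of all genes were called lower. In sensory cortex it put 5 of the 6 past it (all but Flt1), where 1.51% were called lower. EAE and healthy arrays did not overlap for 4 of the 6 in motor cortex (4.19% of all genes, EAE lower), for 6 of the 6 in sensory cortex (4.04%) and for 4 in both (1.49%). The genes were selected on these contrasts, so nothing is read from these counts. Nor is anything read from whether the calls below hold when mice are left out or the processing of the same arrays is changed. The median difference of the 6 was -0.43 in motor and -0.54 in sensory cortex, and that of all genes -0.0077 and 0.00078. In motor cortex Tie1 was not called without EAE mouse 5 or healthy mouse 1, 2 or 4 (differences -0.53 to -0.39 over all 10 leave-outs), Tek not without healthy mouse 1, 3 or 4 (-0.44 to -0.35), and Kdr was called without EAE mouse 4 (-0.45). In sensory cortex Tie1 was not called without healthy mouse 2, 3 or 4 (-0.69 to -0.55), Tek not without EAE mouse 2, 4 or 6 or any healthy mouse (-0.42 to -0.36), and Kdr not without EAE mouse 2, 5 or 6 or any healthy mouse (-0.54 to -0.43). With limma's trended variance, or with only genes above the median level tested, Flt1 was called in sensory cortex (-0.29 in each). With quantile normalization Kdr was not called there (-0.43). Without the 1 healthy array of each region from a second processing day (mouse 4 in motor, mouse 1 in sensory cortex), Tie1 and Tek were not called in motor cortex (-0.39 and -0.39), nor Tek and Kdr in sensory cortex (-0.41 and -0.47).

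**Figure D3:**
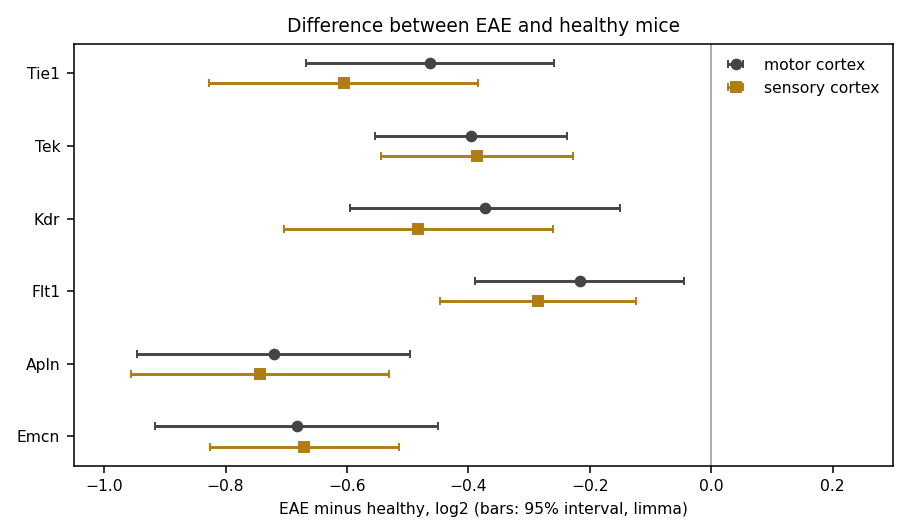
Difference between EAE and healthy mice (log2, horizontal axis) for the 6 genes in motor (grey circles) and sensory (gold squares) cortex, with 95% intervals from limma. The points run from -0.74 (Apln, sensory cortex) to -0.22 (Flt1, motor cortex), and both regions give similar values for each gene.

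The order of the 4 groups was nearly the same for the 6 genes: healthy sensory cortex was highest, then healthy motor cortex, then EAE sensory and EAE motor cortex. Kdr alone had EAE motor above EAE sensory cortex. The step from healthy motor cortex to the higher EAE group exceeded the larger SD of the pair of groups for all 6 genes, from 0.16 (Flt1) to 0.61 (Emcn). The step between the EAE groups was within that SD for all 6. The step between the healthy groups exceeded it for Tie1 (0.25), Apln (0.21), Flt1 (0.12) and Emcn (0.06), and not for Tek (0.03) or Kdr (0.07). Because the genes were chosen for lower values in EAE, the step between healthy and EAE groups is largely fixed by the choice. No share over all genes was computed for these steps, and nothing is read from which of them exceeded the SD.

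The next comparison asked whether these genes differ between motor and sensory cortex of a mouse, a contrast on which they were not chosen. In healthy mice all 6 stood lower in motor cortex, by a median of -0.10, and none passed the threshold with limma, where 3.31% of all genes did. Tie1 stood at -0.25 (95% interval -0.44 to -0.06, adjusted p 0.181), at -0.15 without healthy mouse 3 and at -0.45 without the 2 mice with an array of the second processing day. Apln stood at -0.21 (95% interval -0.41 to -0.01, adjusted p 0.314). In EAE mice 5 of the 6 stood lower in motor cortex, by a median of -0.06 over the 6, and none passed, where 6.12% of all genes did. Apln was again lower, at -0.19 (95% interval -0.35 to -0.03, limma adjusted p 0.197). Its motor value was below the sensory value in all 4 healthy mice and in 5 of the 6 EAE mice, all but EAE mouse 1. Over the leave-outs the Apln difference in EAE mice ran from -0.28 without EAE mouse 1 (limma adjusted p 0.0147) to -0.14 without EAE mouse 5 (adjusted p 0.449). For Tek, Kdr, Flt1 and Emcn the 95% intervals held 0 in both conditions, the widest being those of Emcn, from -0.28 to 0.16 in healthy and from -0.25 to 0.10 in EAE mice.

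**Figure D4:**
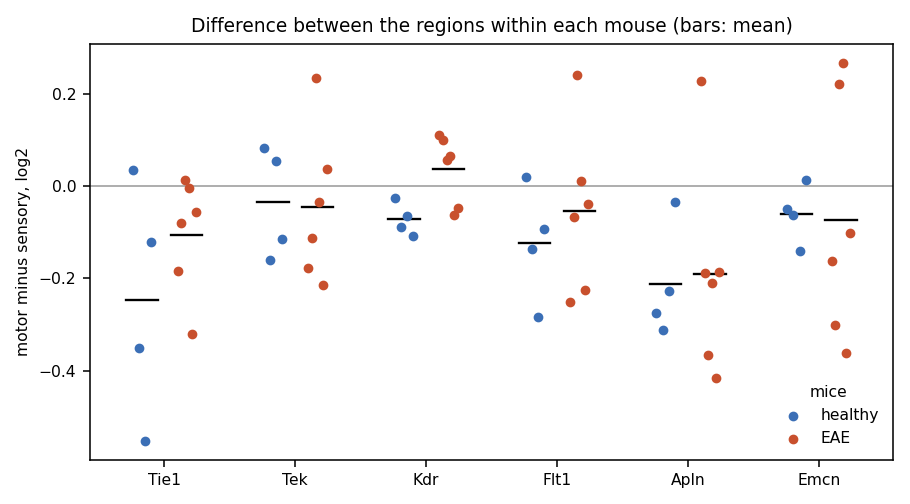
Motor minus sensory value within each mouse (log2, vertical axis) for the 6 genes, healthy mice in blue and EAE mice in orange, with the group mean as a black bar. Apln lies below 0 in all 4 healthy and 5 of the 6 EAE mice, and Kdr lies below 0 in all 4 healthy mice and above it in 4 of the 6 EAE mice.

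The difference between EAE and healthy mice was not shown to be unequal in the regions. The motor minus sensory value of each mouse was compared between EAE and healthy mice, and limma called 0 of the 6 and 0% of the 18194 genes (422 at an unadjusted p under 0.05). The estimates ran from -0.01 (Emcn and Tek) to 0.14 (Tie1), a positive value meaning a smaller distance in motor cortex. Their 95% intervals were -0.10 to 0.39 for Tie1, -0.02 to 0.24 for Kdr, -0.24 to 0.28 for Apln, -0.29 to 0.27 for Emcn, -0.23 to 0.20 for Tek and -0.15 to 0.29 for Flt1. Kdr had the narrowest interval, and its adjusted p was 1.00 as for the 5 others.

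Within the EAE mice the genes were set against the average grade of disease, using the mean of both regions of each mouse. Kdr stood at -0.32 for each grade point (95% interval -0.67 to 0.03, limma adjusted p 0.631). The Kdr slope was -0.49 without EAE mouse 5, -0.11 without EAE mouse 6 and -0.64 with cohort in the model. Tek stood at -0.19 (95% interval -0.44 to 0.06, adjusted p 0.653). Apln stood at 0.09 (95% interval -0.25 to 0.44), Tie1 at -0.02 (-0.37 to 0.33), Flt1 at -0.01 (-0.27 to 0.25) and Emcn at -0.01 (-0.34 to 0.32). None of the 6 and 0% of all genes passed (1444 at an unadjusted p under 0.05), with 6 mice. Cohort 2 holds the higher grades, so grade and cohort overlap: with cohort in the model the median over the 6 genes moved from -0.02 to -0.30, and Apln went to -0.28.

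Across the 20 arrays, with each group's mean subtracted, the 6 genes were only loosely tied to each other. The correlation was 0.62 for Tie1 and Emcn, 0.44 for Apln and Emcn and 0.41 for Kdr and Flt1, and the 12 other pairs lay between -0.37 (Flt1 and Apln) and 0.34. The arrays come in pairs from 10 mice, so these are descriptions. Before the group means were subtracted the pairs ran from 0.62 to 0.91, a range that holds the distance between EAE and healthy mice that chose the genes. Kdr was the gene most alike in the regions of a mouse: the correlation of its motor and sensory deviations over 10 mice was 0.96, against 0.45 for Tie1, 0.36 for Tek, 0.36 for Apln, 0.11 for Emcn and 0.09 for Flt1. Cohort was not subtracted from these deviations, and the healthy Kdr values were split by cohort in both regions. The part of cohort in this correlation was not tested.
The genes whose deviations were most like the mean of the 6 were P3h3, a collagen prolyl hydroxylase, at a correlation of 0.84 over 20 arrays, the ubiquitin ligase gene Trim9 at 0.83, Gnb5 at 0.81, Pdcd11 at 0.80, the cell polarity gene Pard3 at 0.79, Tmem44 at 0.78, Lemd2 at 0.78 and Rbpms, Tm9sf4 and 9530036O11Rik at 0.77 each. Of these Trim9 fell in EAE in both regions, at -0.32 ± 0.07 and -0.47 ± 0.06 (SE), and Tmem44 fell in sensory cortex, at -0.44 ± 0.08, and the 8 others were not called. For single genes the nearest were C1qtnf4, Cul9 and Kctd1 for Tie1 (0.93, 0.92 and 0.92), Golga1, Usp40 and Fam20b for Tek (0.90, 0.90 and 0.84) and Gm266, Igf1 and the chemokine gene Cxcl12 for Kdr (0.84, 0.84 and 0.82). They were Sec24c, Zfp397 and Evc for Flt1 (0.90, 0.90 and 0.88), Dach1, the arterial connexin gene Gja4 and Myh14 for Apln (0.71, 0.70 and 0.68) and Mydgf, Pgls and Tmem192 for Emcn (0.93, 0.88 and 0.87). All of these were picked as the highest among 18194 genes, so values of this size can come from the picking alone.

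The genes around these receptors and ligands were then counted from lists, of which 63 of 67 genes were measured. These lists were chosen with earlier results of these data known, so their counts beside the shares of all genes are a description. In motor cortex 3 of the 63 fell and 0 rose, and in sensory cortex 5 fell and 0 rose by limma over all genes. Of all genes 1.74% and 1.51% were called lower and 0.517% and 0.901% higher. The median difference over the 63 was -0.08 in motor and -0.05 in sensory cortex. The single differences ran from -0.63 to 0.37 in motor and from -0.66 to 0.51 in sensory cortex, and 45 and 41 of the 63 lay below 0.

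Among VEGF ligands and co-receptors 0 of 7 were called in either region, and the median was -0.15 in both. Vegfa, the main ligand of Kdr and Flt1, differed by -0.30 ± 0.11 (motor) and -0.27 ± 0.09 (sensory; SE, limma adjusted p 0.214 and 0.139). Vegfb, which binds Flt1, stood at -0.15 ± 0.08 and -0.15 ± 0.06 (adjusted p 0.405 and 0.204). The co-receptor gene Nrp1, named after its values were seen, stood at -0.28 ± 0.11 and -0.31 ± 0.13.

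Among angiopoietins and TIE partners 0 of 6 were called, with medians of 0.06 and 0.10. Ptprb, the endothelial phosphatase that restrains Tek, stood at -0.25 ± 0.08 and -0.23 ± 0.10 (adjusted p 0.122 and 0.234). Angpt2, the context-dependent antagonist of Tek, stood at 0.09 ± 0.08 and 0.21 ± 0.07 (adjusted p 0.624 and 0.171). Angpt1, the agonist, also named after its values were seen, stood at -0.20 ± 0.16 and 0.04 ± 0.21. The apelin receptor gene Aplnr differed by 0.20 ± 0.09 (motor) and -0.07 ± 0.11 (sensory) (adjusted p 0.307 and 0.728), and the other apelin receptor ligand gene, Apela, at 0.05 ± 0.06 and -0.05 ± 0.11. Neither was called, so the receptor side gave no call beside the lower ligand Apln.

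Among endothelial surface proteins 2 of 13 fell in motor and 3 in sensory cortex, beside 1.74% and 1.51% of all genes, and none rose. Cd93, a C-type lectin-like receptor of endothelium and myeloid cells, had means of 9.55 ± 0.15 (SD, n = 4) in healthy and 8.92 ± 0.26 (SD, n = 6) in EAE motor cortex and of 9.62 ± 0.09 and 8.95 ± 0.25 in sensory cortex. Cd93 fell by 0.63 ± 0.13 and fell by 0.66 ± 0.12 (SE, limma adjusted p 0.0254 and 0.0285), close to the values of Emcn. Its second probe set gave -0.66 and -0.65, and the 3 dimmest of its 5 gave -0.03 to 0.13 and -0.08 to 0.17. Mcam (CD146), an adhesion molecule of endothelium and mural cells, fell by 0.39 ± 0.07 and fell by 0.43 ± 0.10 (adjusted p 0.0156 and 0.0491). S1pr1, the sphingosine phosphate receptor of endothelium and astrocytes, fell by 0.26 ± 0.06 in sensory cortex (adjusted p 0.0462) and stood at -0.22 ± 0.08 in motor cortex. Cd34 and Eng were named after their values were seen. Cd34 differed by -0.00042 (motor) and 0.22 (sensory) and Eng by -0.06 and 0.00075, so surface proteins of endothelium did not share 1 value. Of the 13 genes 11 lay below 0 in motor and 8 in sensory cortex, with medians of -0.08 and -0.11.

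Among the 14 endothelial transcription factors Ets1 fell by 0.51 ± 0.11 in motor cortex (limma adjusted p 0.0281) and stood at -0.37 ± 0.14 in sensory cortex (adjusted p 0.197), and no other was called. Its second probe set gave -0.54 and -0.62, and the 2 dimmest gave -0.08 to 0.03. Among 13 Notch and tip or stalk cell genes Hey1, a Notch effector, fell by 0.34 ± 0.07 in sensory cortex (adjusted p 0.0462) and stood at -0.27 ± 0.07 in motor cortex (adjusted p 0.0658). Among 8 hypoxia targets the lipoprotein receptor gene Vldlr fell by 0.29 ± 0.06 in sensory cortex (adjusted p 0.0470) and stood at -0.25 ± 0.06 in motor cortex (adjusted p 0.0534), with all of its 6 probe sets below 0 in both regions. Medians in motor and sensory cortex were -0.04 and -0.04 (transcription factors), -0.08 and -0.09 (Notch list) and -0.10 and -0.11 (hypoxia targets). The highest differences were 0.24 and 0.39, 0.15 and 0.20, and 0.28 and 0.41 in the same order, none of them called. Of all genes 1.74% and 1.51% were called lower.

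The calls of single pathway genes depended on single mice. In motor cortex, over the 10 leave-outs, Cd93 was lost without EAE mouse 2 or 3 or healthy mouse 1, 2 or 4 (adjusted p 0.00295 to 0.0894), Mcam without healthy mouse 2 or 4 (0.0123 to 0.0620), and Ets1 without EAE mouse 3 or any healthy mouse (0.0107 to 0.103), all by limma. In sensory cortex Hey1, S1pr1 and Vldlr were called only with all mice or without EAE mouse 1, with limma adjusted p up to 0.180, 0.156 and 0.172. Mcam there was lost without any mouse but EAE mice 1 and 3, and Cd93 without EAE mouse 2 or any healthy mouse, up to 0.180 and 0.101.

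**Figure D5:**
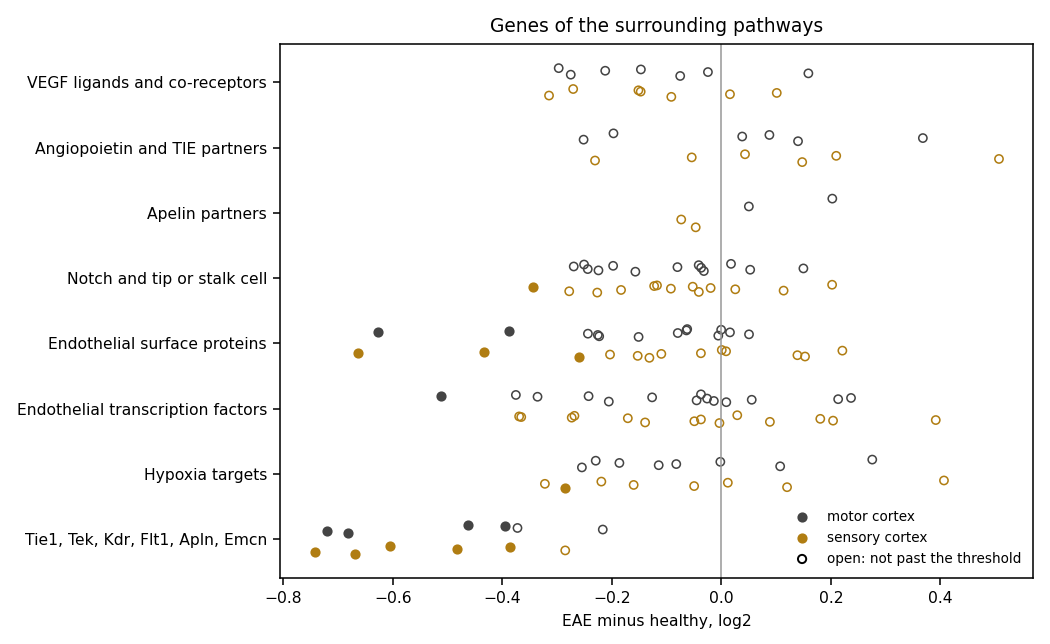
Difference between EAE and healthy mice (log2, horizontal axis) for the genes of 7 pathway lists and, in the bottom row, for the 6 genes described here, in motor (grey) and sensory (gold) cortex. Filled points passed a limma adjusted p of 0.05: all filled pathway points lie below 0, and the lowest, at -0.66, is Cd93 in sensory cortex.

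Markers of endothelium and of its neighbours were read on the same arrays. Of 11 general endothelial genes 2 rose and 2 fell in motor cortex and 3 rose and 1 fell in sensory cortex, with medians of -0.07 and 0.03. Their mean level ran from 10.1 to 10.2 in healthy and from 9.95 to 10.2 in EAE motor cortex, and from 10.1 to 10.2 and from 10.0 to 10.3 in sensory cortex. The von Willebrand factor gene Vwf rose in both regions (0.69 and 0.88), as did the lipid transporter gene Mfsd2a (0.39 and 0.52), and the glucose transporter gene Slc2a1 rose in sensory cortex (0.48). The thyroid hormone transporter gene Slco1c1 fell in both (-0.54 and -0.51), and Itm2a fell in motor cortex (-0.50). Pecam1 stood at 0.05 and 0.03, Cldn5 at -0.15 and -0.15 and Cdh5 at -0.27 and -0.28, none of them called. The mean of these 11 genes, which went in opposite directions, differed by -0.02 and 0.05 and is no measure of how much endothelium a sample held. Taken relative to that mean on each array, the 6 genes stood at -0.70 (Apln), -0.66 (Emcn), -0.44 (Tie1), -0.37 (Tek), -0.35 (Kdr) and -0.20 (Flt1) in motor cortex. In sensory cortex they stood at -0.79, -0.72, -0.65, -0.43, -0.53 and -0.33 in the same order of genes. That mean hardly differed, so these values stay close to the differences above by construction and are no control for endothelial content. EAE and healthy arrays overlapped on this measure for Kdr and Flt1 in motor and Tek in sensory cortex, and the share over all genes was not computed.
Of 8 pericyte genes 0 were called, with medians of -0.08 and -0.0082, and their mean level ran from 9.44 to 9.61 in healthy and 9.36 to 9.49 in EAE motor cortex and from 9.51 to 9.66 and 9.50 to 9.59 in sensory cortex. Of 4 smooth muscle genes and 4 choroid plexus genes 0 were called in either region. Of 7 fibroblast and meningeal genes Igfbp2 fell in motor cortex (-0.75) and Igf2 rose in sensory cortex (0.60), and the mean level of the list overlapped between EAE and healthy mice. The 4 microglia genes measured averaged 10.9 to 11.0 in healthy and 10.4 to 10.6 in EAE motor cortex and 10.8 to 11.1 and 10.2 to 10.7 in sensory cortex, with P2ry12 called lower, and the 4 leukocyte genes 8.14 to 8.29 against 8.32 to 8.65 and 8.06 to 8.17 against 8.19 to 8.94, with Cd52 called higher in sensory cortex. Mag, of 3 oligodendrocyte genes, was called lower in both regions, and 0 of 4 astrocyte and 0 of 5 neuron genes were called. Of the microglia genes, P2ry12 fell (-0.97 and -0.98), and Cx3cr1 (-0.56 and -0.71), Tmem119 (-0.21 and -0.18) and Csf1r (-0.19 and -0.09) were not called. Of the leukocyte genes, Cd52 stood at 0.81 in motor cortex and rose in sensory cortex (1.34), while Ptprc (0.07 and 0.42), Itgal (0.08 and 0.02) and the T cell gene Cd3e (0.02 and 0.01) were not called, so the leukocyte mean rests largely on Cd52. The mean microglia level was lower and the mean leukocyte level higher in EAE in both regions without overlap. Differences within the microglia list were largest for P2ry12 and Cx3cr1, so its mean rests largely on them. How often the mean of so few genes separates the groups was not computed, and nothing is read from the separation. The part of either cell type in the result was not tested.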

How the data were processed

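Gene expression was measured on 20 Affymetrix arrays. Per the labels' protocols, mice were perfused, the regions were dissected from 1 mm slices, and 1 µg of total RNA was labelled with biotin. The authors deposited log2 values for 45101 probe sets. The submitters' processing notes name Partek and RMA; their versions and order are not given in the sources used here. Such summaries tend to compress differences at low signal.

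By GEO's platform annotation 34958 probe sets had 1 symbol, 932 several and 9211 none, and only the first were used. The brightest probe set of each of 18194 genes entered two-sided limma models (version 3.58.1, R 4.3.3). Cohort was a term in each but grade, and p-values were adjusted over all genes at 0.05. Motor and sensory arrays of a mouse were paired through the labels' animal numbers; their deviations from group means correlated at -0.03 to 0.59. The members and lists were chosen with earlier results of these data known. Named beside the members were the called genes of each pathway list, or its 2 with the smallest p where none was called, the 10 genes most like the members' mean and the 3 most like each. The smallest root mean square difference between 2 arrays of the same region and condition was 0.145. On simulated data, a log2 change of 0.5 was recovered in 83% (motor), 75.5% (sensory), 47% (difference between regions) and 36.5% (grade) of 200 changed genes among 18194. The number of mice limits the precision, and no detection calls were used here. The alternatives tried were no cohort term, quantile normalization, limma trend, a filter on level, the mean of all probe sets, a replicate block, single cohorts, the second processing day left out and each mouse left out.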

Additional observations from a re-analysis of the deposited data

Results flagged for a closer look

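Flt1 in the motor cortex of healthy mouse 3 was far from the other healthy mice: its value was 10.74, and the nearest of the 3 others was 10.90, a gap that took up 0.854 of the group's range. Of 24 groups of values examined in this way (6 genes in 4 groups) this was the 1 that stood out, and about 1 in 20 does by chance. Without this mouse the Flt1 difference in motor cortex was -0.26, against -0.22 with it, and it was not called either way.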

How the results depend on the processing

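The choice of the 6 genes on these arrays largely fixes their direction between EAE and healthy mice: all 222 values from the alternatives lay below 0, Flt1 in motor cortex at -0.0040 with the mean of its probe sets, and no stability is read from this. Nothing is read from the calls of the 6 on this contrast either. Members called were 4 in motor and 5 in sensory cortex. With genes above the median level they were 1 and 3, with Tie1, Tek and Emcn then not tested and Flt1 newly called in sensory cortex. They were 0 and 0 in cohort 1 alone, 0 and 3 in cohort 2 alone (median in sensory cortex -0.45), and 2 and 3 without the second processing day. With the replicate number as a block, which joins different animals (deviations correlated at 0.02 to 0.29 in motor and -0.25 to 0.40 in sensory cortex), 0 members were called in sensory cortex. Leaving out each mouse gave 2 to 5 in motor and 2 to 5 in sensory cortex, and 0 to 1 for motor against sensory cortex of EAE mice.

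Over all genes the 410 calls in motor and 438 in sensory cortex were 145 and 6 with the replicate block, 9 and 0 in cohort 1, 16 and 141 in cohort 2 and 194 and 118 without the second day. In sensory cortex they were 831 with limma trend and 795 among genes above the median level. Leaving out a mouse gave 145 to 470 in motor and 19 to 1009 in sensory cortex. Quantile normalization turned the split of higher and lower calls from 94 and 316 to 120 and 227 in motor and from 164 and 274 to 193 and 182 in sensory cortex. Motor against sensory cortex in healthy mice, 603 calls, gave 907 with quantile normalization, 72 without the second day and 171 to 809 without single mice, and in EAE mice, 1113 calls, 649 to 1254. With the mouse left out of these models (no replicate block) the counts were 539 and 954, and 0 members were called, as with it.

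Pathway genes called lower, 3 in motor and 5 in sensory cortex, were 5 and 3 without the cohort term, 5 in motor cortex with limma trend, 1 in sensory cortex with quantile normalization, 1 and 0 with the replicate block, 1 and 0 in cohort 1, 0 and 0 in cohort 2, 0 and 1 without the second day and 0 to 6 in both regions without single mice. Called higher, 0 in each, became 1 in motor cortex with quantile normalization, 1 in both regions among genes above the median level, 1 in sensory cortex with limma trend and 0 to 1 there without single mice.

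Grade gave 4 calls on motor arrays alone and 0 to 23 without single mice. With the cohort term the median slope was -0.30. Values of the 6 genes near 0 changed sign. For grade, Tie1 was 0.0625 with quantile normalization, 0.0262 on sensory arrays and -0.115 to 0.0499 without single mice. Emcn was 0.0572, 0.105 and -0.0535 to 0.0871. Flt1 was 0.0192 on sensory arrays and -0.151 to 0.144 without single mice. Apln was -0.282 with the cohort term, -0.0776 on motor arrays and -0.0537 to 0.259 without single mice. For the difference between regions, Tek was 0.0077 and Emcn 0.0288 without the second day. Without single mice Tek was -0.0708 to 0.0292, Emcn -0.0900 to 0.0536 and Apln -0.0694 to 0.0970. For motor against sensory cortex, Flt1 in EAE mice was 0.0033 with the mean of all probe sets and -0.112 to 0.00026 without single mice, and Tek in healthy mice -0.0730 to 0.0202. The causes were not tested.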
